A study of Solanum lycopersicum with 3 samples.

Results

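The small RNA library of mock-treated tomato ovaries (ctrl) was described by its composition, that is, by which mature miRNAs its reads fell on. It comprises all 634 listed miRNAs, 125 known and 509 predicted, as counted in 1 of the 3 libraries of the series. The ovaries came from wild-type flower buds of the cultivar UC82 whose pedicels had been injected with layered double hydroxides (LDHs), mineral particles that can carry RNA, without any double-stranded RNA (dsRNA). The buds were emasculated 6 h later, bagged against pollination, and their ovaries were collected 5 days after the injection. The labels of the series call its ovaries both pre-anthesis and detached, while the treatment protocol leaves them on the plant. The treatment label of ctrl says only that its ovaries were mock-treated. The other 2 libraries, AGL6sil and IAA9sil, came from ovaries that had received 5 µg of dsRNA against AGL6 or IAA9 on the same carrier, and are used here only where a balance within a library is set beside that of ctrl. Each library is 1 pool of ovaries, so replicate error could not be estimated. Intervals of shares are 95% exact binomial (Clopper-Pearson) intervals. That of the effective number of families is a 95% normal approximation. All of them cover counting error only. The counts hold no messenger RNA, so the tissue could not be checked against marker genes.

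A plant miRNA is cut by the enzyme DCL1 from both arms of a hairpin precursor, as a duplex of a 5p and a 3p strand. As a rule a particular strand, the guide, is kept by an ARGONAUTE protein such as AGO1, which favours a U as first base, and the partner strand is lost. The guide pairs with its target transcript, which is then cut or translated less. Families kept across flowering plants mostly act on transcription factors and on the small RNA machinery itself, and in the ovary the miRNAs of auxin response and of GAMYB factors have been tied to fruit set. A further set, best known from the Solanaceae, acts on immune receptor genes.

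The sequences below are those on which the arm balance turns, both strands of miR168a, miR164a, miR403 and miR390a, and for miR166c and miR396a the strand with more reads. Each is written 5′ to 3′ with the seed, bases 2 to 8, in capitals. The usual guide strand of each conserved family is the one known from plants in general.
sly-miR168a-5p, usual guide: uCGCUUGGugcaggucgggac
sly-miR168a-3p: cCUGCCUUgcaucaacugaau
sly-miR164a-5p, usual guide: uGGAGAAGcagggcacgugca
sly-miR164a-3p: cAUGUGCCuguuuuccccauc
sly-miR403-3p, usual guide: cUAGAUUCacgcacaagcucg
sly-miR403-5p: cGUUUGUGcgugaaucuaaca
sly-miR390a-5p, usual guide: aAGCUCAGgagggauagcacc
sly-miR390a-3p: cGCUAUCCauccugaguuuua
sly-miR166c-5p, partner of the usual guide: gGGAUGUUgucuggcucgaca
sly-miR396a-3p, partner of the usual guide: gUUCAAUAaagcugugggaag

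The ctrl library held 1038064 counted reads, against 1460919 in AGL6sil and 1053000 in IAA9sil. At this depth, 602 of the 634 miRNAs had at least 1 read, and a miRNA without a read was given a limit of 0.000289% of the reads, the share of 3 reads, which is one-sided, unlike the intervals. Values are reads per mature sequence and were not scaled for length. They depend on how readily each sequence is ligated and amplified as well as on its abundance. In a pool of whole ovaries, fewer cells that make a miRNA and less of it per cell cannot be told apart.

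Reads on the 125 known miRNAs were concentrated in a few families, taken as all miRNAs with the same number in their name. Of 64 families, 62 had a read. Only 2 families, miR162 and miR166, held more than 50% of the known reads, 8 families held 90% of them and 20 held 99%. The effective number of families (inverse Simpson index, the number of equally abundant families that would be as uneven) was 4.79 (interval 4.78 to 4.81). The 10 leading families took 91.8% of all reads, and each of them took more than 1%. At the other end, 27 families had fewer than 100 reads and 10 had fewer than 10.

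**Figure D1:**
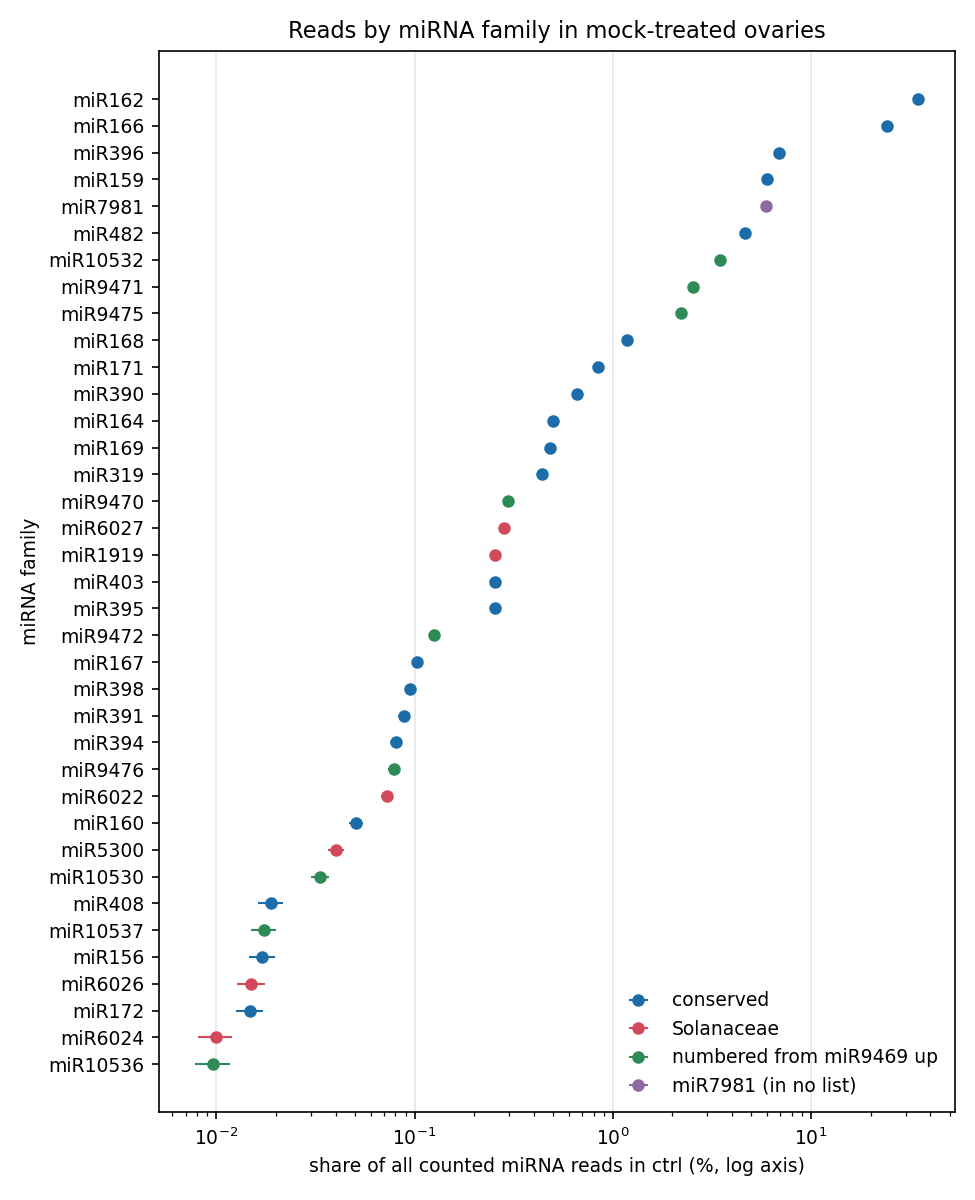
Share of all counted miRNA reads in ctrl for the 37 families with at least 100 reads, on a log axis, coloured by class, with exact binomial 95% intervals that are mostly narrower than the points. miR162 at 34.8% and miR166 at 24.2% stand at the top, and no Solanaceae family reaches 1%.

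By class, the 26 conserved families held 847363 reads, 81.6% of the library (interval 81.6 to 81.7), on 69 miRNAs. Families numbered from miR9469 up held 91441 reads on 35 miRNAs, 8.81% of the library. The 13 families listed as Solanaceae held 7134 reads on 16 miRNAs, 0.687% (interval 0.671 to 0.703). This value rests on the list, since miR482 was counted as conserved and miR5300, of the same superfamily, as Solanaceae. With miR482 moved into it, the Solanaceae class held 5.31%. The miR7981 family, which was in none of the lists, held 61332 reads on 5 miRNAs, 5.91%, more than the listed Solanaceae families together. A typical conserved miRNA had a median of 236 reads, a Solanaceae one 79.5 and one numbered from miR9469 up 27.

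The miRNAs that act on the small RNA machinery itself took the largest part, 36.2% of the library. Nearly all of it was sly-miR162, whose family targets DCL1, with 361195 reads on 1 listed sequence. miR168, which targets AGO1, followed with 12243 reads over 3 listed sequences (1.18%), of which 2624 were on the usual guide, sly-miR168a-5p. miR403, which targets AGO2, had 2640 reads (0.254%), of which 236 were on its guide. All 6 listed miRNAs of the 3 families were read, the lowest 236 times.

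The miR166 family, which targets class III HD-ZIP factors of organ polarity, held 251333 reads or 24.2% of the library. Its reads were spread over 3 listed sequences, with 99113 reads on sly-miR166a, 80691 on sly-miR166c-5p and 71529 on sly-miR166c-3p. Near-identical members can share reads, and how the counting treated them is not given in the sources used here.

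Among growth regulators, miR396, which targets the GRF factors, had 71902 reads (6.93%). Of these, 64633 were on sly-miR396a-3p, the partner of the usual guide, 3505 on the guide sly-miR396a-5p and 3764 on sly-miR396b, which has no arm in its name. The miR159 family, which targets GAMYB factors, had 62023 reads (5.97%), of which sly-miR159 held 62020 and sly-miR159b 3. The related miR319 family, which targets TCP factors, had 4551 reads (0.438%), led by sly-miR319b with 2920. miR171 against GRAS factors had 8777 reads (0.846%), but only 98 of them were on a named usual guide strand, sly-miR171b-3p. Most, 93.9%, were on sly-miR171f, which has no arm in its name. In miR169 against NF-YA factors, sly-miR169f likewise held 98.7% of 5006 reads, while sly-miR169a had none. miR164 against NAC factors had 5168 reads (0.498%), but only 128 of them were on a usual guide strand and 5040 on partner strands.

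In miR171 the member that led carries no arm in its name, and its sequence is shown beside others of the family.
sly-miR171f: uAUUGGCCugguucacucaga
sly-miR171c: uAUUGGUGcgguucaaugaga
sly-miR171b-5p: aUAUUGGUgcgguucaauuag
sly-miR171b-3p, usual guide: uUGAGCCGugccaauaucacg
sly-miR171a: uGAUUGAGccgugccaauauc

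sly-miR171c (203 reads) shared a run of 17 bases with sly-miR171b-5p (9 reads), and sly-miR171f (8244 reads) shared a run of 6 with it, in both cases from base 1 against base 2. sly-miR171a (94 reads) shared a run of 18 bases with the guide strand sly-miR171b-3p (98 reads).

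The families of auxin response were a small part of the library, 8472 reads or 0.816% over 9 miRNAs. miR390, which starts the formation of the small RNAs against ARF genes, had 6850 reads, of which 5533 were on its 3p partner strands and 1317 on its 5p guides. miR167 against ARF6 and ARF8 had 1065 reads, of which sly-miR167a had 989. miR160 against ARF10, ARF16 and ARF17 had 526. miR393, whose targets are the TIR1 and AFB auxin receptors, had 31 reads (0.00299%, interval 0.00203 to 0.00424). Counting both strands, the order was miR390, miR167, miR160 and miR393, and the intervals of their shares did not overlap.

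The phase change families, miR156 against SPL and miR172 against AP2 factors, had only 176 and 153 reads. The intervals of their shares, 0.0145 to 0.0197% and 0.0125 to 0.0173%, overlapped. Together their 8 miRNAs held 0.0317% of the library (interval 0.0284 to 0.0353).

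In the families of mineral nutrition, 3829 reads were counted in all. sly-miR395a, of the family that targets ATP sulfurylase and a sulfate transporter, had 2628 of them. sly-miR398a, of the family against copper/zinc superoxide dismutases, had 988 and sly-miR408 had 195. The phosphate family miR399 and the laccase family miR397 were close to the limit of detection, with 4 and 14 reads.

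The families whose targets are NBS-LRR immune receptors held 51641 reads (4.97%). Most were of miR482, a widely kept family, with 48037 reads over 7 sequences. The largest were sly-miR482e-3p with 17945, its partner strand sly-miR482e-5p with 14078 and sly-miR482b with 10757. The rest of this sum came from families listed as Solanaceae. Of these, miR6027 had 2928 reads, miR5300 had 417 and miR6024 had 103, and miR6026 was also counted. The Solanaceae families miR1919, with 2640 reads, and miR6022, with 755, were not part of the sum. miR6022 was grouped with families against receptor-like proteins, and miR1919 was in no target group. In RefSeq's annotation of tomato (SLM_r2.1), which held 88 of the 97 precursor names, MIR482d, MIR482b and MIR482c lie next to each other with at most 1 gene between neighbours. Their reads were nevertheless unequal, 1735 on sly-miR482d-3p, 10757 on sly-miR482b and 1323 on sly-miR482c.

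Of the families numbered from miR9469 up, miR10532 (35913 reads, 3.46%), miR9471 (26414, 2.54%) and miR9475 (23043, 2.22%) led. MIR9471a and MIR9471b are also neighbours with no gene between them, and sly-miR9471b-3p had 22150 reads against 4208 of sly-miR9471a-3p. The 5p strands of the pair share 20 of 21 bases, the seed AGGUGCU among them, and had 22 and 34 reads. The only families without a read were miR10539 and miR10540, and outside them sly-miR169a and sly-miR5302a had none. In the unlisted miR7981 family, sly-miR7981e, sly-miR7981c and sly-miR7981f had 28663, 22310 and 10287 reads, and sly-miR7981a and sly-miR7981b had 35 and 37.

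Which strand of a precursor dominated was read from the 28 precursors for which both a 5p and a 3p sequence are listed. They hold 33.4% of the known reads, since 62 of the 125 known miRNAs, with 65.9% of the reads, carry no arm in their name. With at least 50 reads on both arms together, 20 precursors remained. The 3p arm had more reads in 14 of them and the 5p arm in 6, and the counting interval of the balance excluded an equal share for all 20. The larger arm had between 1.13 and 1007 times as many reads as the smaller, with a median of 7.34.

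**Figure D2:**
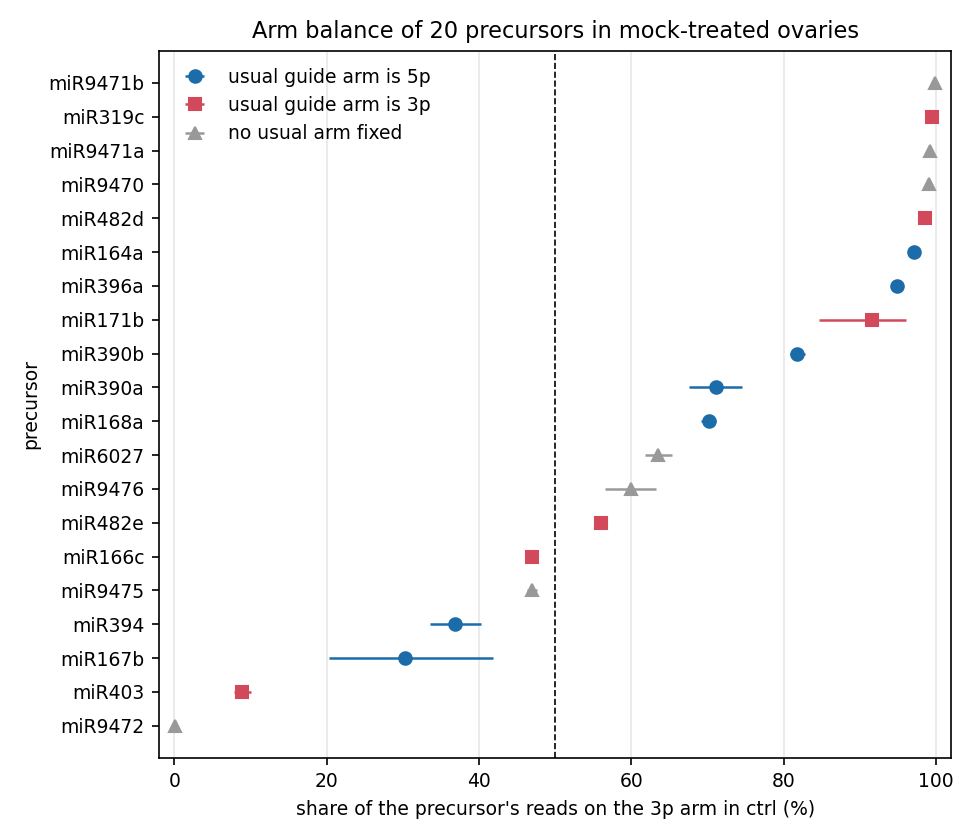
Share of each precursor's reads that fell on its 3p arm in ctrl, for the 20 precursors with at least 50 reads, with exact binomial 95% intervals. Circles right of the dashed line at 50% and squares left of it are the 7 precursors whose usual guide arm had fewer reads.

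A usual guide arm was fixed for 13 of the 20 precursors. In 7 of the 13 the usual guide had fewer reads than its partner, and in 6 it had more. The 7 partner strands held 163659 reads and their guides 79339, sums whose direction follows from how the 7 were picked. sly-miR166c, whose arms were close, supplied 80691 and 71529 of them, and without it the sums were 82968 and 7810. A sequence was at hand for 6 of these partner strands, and 4 of them begin with C, 2 with G and 0 with U. Of the 4 guides with a sequence, 2 begin with U, 1 with A and 1 with C. The guides of sly-miR166c, sly-miR396a and sly-miR390b had no sequence at hand. The study listed these sequences for a difference between libraries, so their first bases do not describe the strands of ctrl in general.

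The strands of sly-miR164a were the most unequal of the 7, with 128 reads on the 5p guide and 4225 on the 3p partner, so that the partner held 97.1% (interval 96.5 to 97.5). For sly-miR396a the numbers were 3505 on 5p and 64633 on 3p, or 94.9% on the partner. sly-miR403 had 236 reads on the 3p guide and 2404 on the 5p partner, or 91.1%. The partner strand thus exceeded the guide more than 10-fold in these 3 precursors.

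Both miR390 precursors leaned to the 3p partner, sly-miR390b with 5067 of 6195 reads (81.8%) and sly-miR390a with 466 of 655 (71.1%). sly-miR168a had 6173 reads on 3p and 2624 on the 5p guide, and the listed strand of its paralog, sly-miR168b-3p, had 3446. In sly-miR166c the arms were close, with 80691 reads on the 5p partner (53.0%, interval 52.8 to 53.3) and 71529 on the 3p guide. That balance leaves aside sly-miR166a, which has no arm in its name.

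The printed strands of these precursors could be paired as duplexes. With 2 bases left over at the 3′ end, 17 of 19 positions could pair in miR168a, miR390a and miR403, counting G-U pairs, and 16 of 19 in miR164a.

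In 6 precursors the usual guide led. sly-miR482d (1735 of 1760 reads on 3p, 98.6%) and sly-miR319c (1422 of 1430 on 3p, 99.4%) were almost wholly of the guide strand. sly-miR171b had 98 of 107 reads on 3p and sly-miR167b 53 of 76 on 5p. The balance was closer for sly-miR394, with 527 reads on 5p and 308 on 3p, and for sly-miR482e, whose 3p guide held 56.0% (interval 55.5 to 56.6).

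Among the 7 precursors without a fixed guide arm, sly-miR9471b, sly-miR9471a and sly-miR9470 had at least 99.1% of their reads on 3p, and sly-miR9472 had 1301 of 1303 on 5p. sly-miR6027 and sly-miR9476 were more even, with 63.6% and 59.9% on 3p. In sly-miR9475 the arms were nearly equal, 12230 reads on 5p and 10813 on 3p. Its strands paired at 19 of 19 positions without any G-U pair, which is why they are shown.
sly-miR9475-5p: aACGAUCUcuacauuguaggc
sly-miR9475-3p: cUACAAUGuagagaucguuuu

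The strands of sly-miR9476, which also paired at 19 of 19 positions, were less even. The remaining 8 precursors with both arms listed had between 4 and 42 reads, too few to say which arm led in most of them.

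A balance between arms needs no scaling of the library and was set beside the other 2 libraries, without a test, since there is 1 library each. The usual guide had fewer reads than its partner in 5 of the same 7 precursors in AGL6sil and in 6 in IAA9sil. sly-miR166c was the exception in both, with 90.6% of its reads on the 3p guide in AGL6sil, 57.1% in IAA9sil and 47.0% in ctrl. sly-miR168a was the other exception in AGL6sil, where its 5p guide held 65.1%, against 25.5% in IAA9sil and 29.8% in ctrl. In sly-miR396a the 5p guide held 32.8%, 8.40% and 5.14%, in the same order, and in sly-miR164a 17.4%, 6.62% and 2.94%. For the 3p guide of sly-miR403 these shares were 39.2%, 15.1% and 8.94%. Both miR390 precursors went the other way, with the lowest share in AGL6sil, 12.8% for the 5p guide of sly-miR390b and 12.2% for that of sly-miR390a. They held 21.2% and 29.7% in IAA9sil and 18.2% and 28.9% in ctrl, and for sly-miR390a the intervals of IAA9sil and ctrl overlapped. ctrl had the lowest guide share of the 3 libraries for 4 of these 7, which were picked for a low guide share in ctrl, and for 5 of the 6 precursors in which the guide led, 9 of 13 in all. Among the latter, the 3p guide of sly-miR482e held 56.0% in ctrl against 94.8% and 82.9% in AGL6sil and IAA9sil, and the 5p guide of sly-miR394 63.1% against 99.7% and 86.1%. For sly-miR482d, sly-miR319c and sly-miR167b the intervals of ctrl and IAA9sil overlapped, and for sly-miR319c also those of ctrl and AGL6sil. In AGL6sil, sly-miR167b and sly-miR171b had fewer than 50 reads on both arms together. The precursors in which ctrl did not have the lowest guide share were sly-miR168a, both miR390 precursors and sly-miR171b. For sly-miR171b the intervals of all 3 libraries overlapped. The near-equal arms of sly-miR9475 were found in each library, with 53.1% on 5p in ctrl, 52.2% in AGL6sil and 52.5% in IAA9sil.

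**Figure D3:**
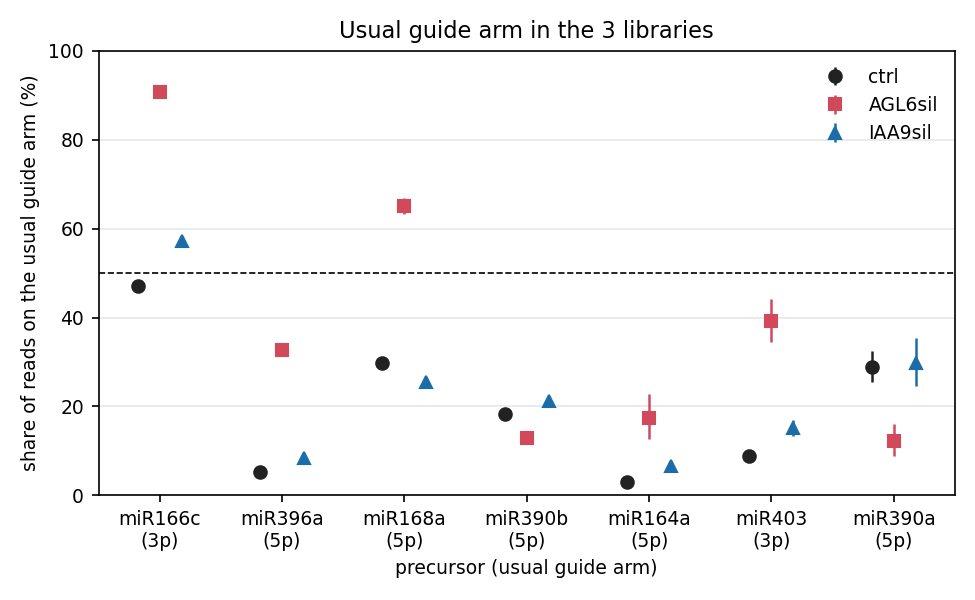
Share of reads on the usual guide arm (named in brackets) for the 7 precursors in which it had fewer reads than its partner in ctrl, in each of the 3 libraries, with exact binomial 95% intervals. Only miR166c in AGL6sil and IAA9sil and miR168a in AGL6sil lie above the dashed line at 50%.

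The leading families also took different shares of the 3 libraries. miR166 held 24.2% of the reads in ctrl, 12.2% in AGL6sil and 15.1% in IAA9sil, and miR396 held 6.93%, 1.13% and 4.06%. Higher shares in the silenced libraries were found for miR159, with 5.97% in ctrl, 10.2% in AGL6sil and 6.78% in IAA9sil, and for miR7981, with 5.91%, 8.68% and 8.01%. A share also moves when another family takes more or less of the library, and miR162 took 44.2% in AGL6sil and 41.8% in IAA9sil. The effective number of families was 3.90 in AGL6sil and 4.34 in IAA9sil. These differences compare single libraries and not the treatments.

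Predicted miRNAs were 80.3% of the listed sequences but held 30794 reads, 2.97% of the library (interval 2.93 to 3.00). Of the 509, 481 had a read, 208 had fewer than 10 and 5 had at least 1000. Of the 125 known miRNAs, 29 had fewer than 10 reads and 39 had at least 1000. The middle 50% of the predicted miRNAs lay between 5 and 39 reads, and that of the known ones between 12 and 2174. The ranges nevertheless overlapped in part. The median of the known miRNAs, 126 reads, was reached by 44 of the 509 predicted ones. That of the predicted ones, 13 reads, was not exceeded by 33 of the 125 known ones. The reads were also spread more evenly over the predicted miRNAs. Reaching 50% of the reads took 17 predicted miRNAs, against 3 known ones.

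**Figure D4:**
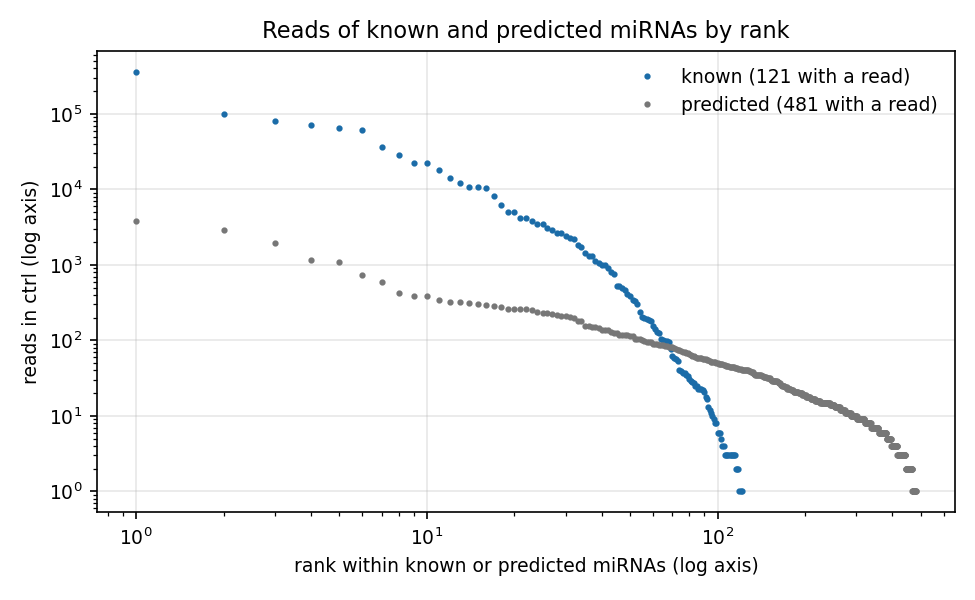
Reads of each known and predicted miRNA with a read in ctrl against its rank within its kind, both on log axes. The known miRNAs start at 361195 reads and the predicted ones at 3798, and the curve of the known ones falls below that of the predicted ones among its lower ranks.

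The predicted miRNA with the most reads was novel_1 with 3798, which 22 known miRNAs exceeded. novel_217 had 2892 reads, novel_4 had 1938, novel_286 had 1172 and novel_6 had 1092. Next came novel_351 with 732, novel_5 with 592, novel_12 with 421, and novel_13 and novel_25 with 386 each. These 10 held 43.5% of the reads on predicted miRNAs. Only novel_4, novel_351 and novel_25 among them have a sequence in the study.

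The sequence of novel_4 is shown because it is close to a known miRNA. It has the seed of sly-miR395a and the same base at 19 of its 21 positions, and its 1938 reads compare with 2628 of sly-miR395a.
sly-miR395a: cUGAAGUGuuugggggaacucc
novel_4: uUGAAGUGuuugagggaacuc

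A shared seed was also found for novel_25 (386 reads), aACGAUCUucgacuagcaaaagac, and sly-miR9475-5p, but the longest run of bases they share is 8, and novel_25 has 24 bases against 21. No family is given for either predicted miRNA, and none was assigned.

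Lengths and first bases could not be given for the library as a whole. Sequences were at hand for 46 of the 121 known miRNAs with a read, which hold 21.9% of the known reads, and for 47 of the 481 predicted ones. They were also picked by the study for a difference between libraries, so a check over them is void as a description of ctrl. Within them, 37 of the 46 known sequences have 21 bases, and 35 of the 47 predicted ones have 24.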

How the data were processed

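Small RNA reads of 18 to 30 nt were mapped by the authors to the tomato genome with Bowtie (no version or build is given in the sources used here), and aligned to miRBase, whose release the paper does not give uniformly, or to precursors predicted with miREvo and mirdeep2. The deposited counts are whole reads per mature sequence, not normalized.

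Counts of ctrl were summed by the number in the miRNA name and expressed as shares of all counted reads, with Clopper-Pearson 95% intervals. No molecular identifiers are named in the sources used here, so reads may include PCR copies, and intervals and the limit of 3 reads for a count of 0 cover counting error only. With 1 library per group, no test was made. Dominant arms were taken from precursors with 50 or more reads on both arms together. Strands were paired with 0 to 4 bases left over at the 3′ end of the 3p strand, and the best fit was kept. Named are the 10 leading families with their leading member, members with 1% or more of the reads, these precursors, the top 3 families and those without a read of each class, the 10 predicted miRNAs with the most reads, and the families the paper names. miR7981, miR171 members and the other families of each role were named beyond this rule, after their values were seen. The members, classes, role groups and usual guide arms were chosen with earlier results of these data known. The intervals and arm calls were run on libraries redrawn from the ctrl shares. Such redrawing assumes counting error only, so it checks the calculation and not the results. Sequences came from the study's supplementary tables, which list miRNAs picked for a difference between libraries. Python 3.11.15, numpy 2.4.6, scipy 1.17.1, pandas 2.3.3 and matplotlib 3.10.9 were used.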

Additional observations from a re-analysis of the deposited data

How the results depend on the processing

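Shares of reads moved with the denominator by more than their counting intervals, which are narrow at this depth. Over known miRNAs only, miR162 held 35.9%, conserved families 84.1% and Solanaceae families 0.708%. Without miR162, conserved families held 71.8%, Solanaceae families 1.05% and predicted miRNAs 4.55%. With miR482 counted as Solanaceae, that class rose to 5.31% and the conserved class fell to 77.0%. With miR7981 counted there, a choice made after seeing the data, the Solanaceae class held 6.60%, so that its small share depends on the list. Predicted miRNAs held 2.88% without miRNAs under 10 reads and 2.61% without novel_1. The effective number of families was 4.78 with families joined into superfamilies, 5.14 without miR162 and 5.09 with each predicted miRNA as a family. The numbers of families for 90% of known reads and of precursors by arm stayed within 1.5 times under all 11 alternatives, among them, added after seeing the data, the other 2 libraries in place of ctrl. With 10 reads as the limit, the usual guide had fewer reads in 8 precursors, and with 50 reads on each arm in 7. The planned shares by length and first base were not run, because too few sequences were at hand. Depth limits the arm calls of 8 precursors and the order of families under about 100 reads.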
